A study of Mus musculus with 47 samples.

Results

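Adenomas of C5F1 Apc Min mice were compared with the uninvolved intestinal mucosa of C5F1 Apc Min mice by RNA sequencing. The comparison takes 6 of 47 libraries of the series, 3 of C5F1 adenoma and 3 of C5F1 mucosa labelled normal from Min animals (Min mucosa below), chosen by strain, genotype and tissue as labelled. C5F1 mice come from crossing C57BL/6 (B6) with the consomic strain C5, a B6 line whose chromosome 5 is that of PWD/Ph, so that both groups carry 1 PWD and 1 B6 copy of that chromosome. Both groups are also heterozygous for the Min allele of Apc in the germline, and both come from mice of 15 to 19 weeks. The 3 C5F1 wild-type mucosa libraries, from mice of the same age with intact Apc, were used as a further comparison, and the adenoma and Min mucosa libraries of B6 and C5 (3 each) were used to ask whether the adenoma change differed between backgrounds. The sources used here do not state the segment of intestine, the sex, the number of adenomas per sample, or whether replicates are separate animals, so p-values capture only how these samples vary, which may be technical. In such bulk tissue, fewer cells of a type and less RNA per cell cannot be told apart.

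Apc is a scaffold of the complex that marks beta-catenin for destruction, and intestinal crypt cells that lose its function keep Wnt target genes on without a Wnt ligand. The Min allele carries a premature stop, and adenomas arise where the remaining wild-type copy is lost. Wnt signalling normally maintains stem cells and Paneth cells at the crypt base, while enterocytes, goblet cells and enteroendocrine cells mature on the way to the villus. Crypt cells after injury, and many intestinal tumours, also express genes of the fetal gut epithelium and of the stomach.

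Each library held between 3100315 and 8416179 counts in genes. Min mucosa 1 stood apart from the other 5 libraries: the ribosomal precursor Rn45s took 72.7% of its gene counts, against 28.8 to 57.7% in the adenomas and 34.0 and 42.0% in the other Min mucosa libraries. That left 1315821 effective counts after scaling, and the library lay at 70.6 on the second principal component, where the other 8 C5F1 libraries lay between -23.2 and 16.1. The epithelial identity of both tissues was visible in Vil1, which bundles actin in microvilli and stood at 809, 661 and 545 CPM in the adenomas, against 1784, 1607 and 1447 CPM in Min mucosa. Apc itself (chromosome 18) was at 125, 117 and 136 CPM in the adenomas, against 112, 131 and 136 CPM in Min mucosa, a log2 change of -0.01 ± 0.19 (SE, adjusted p = 0.982). The groups overlapped. Min is a point mutation, so the transcript level does not check the genotype label. All levels are CPM, read counts scaled to the TMM-adjusted library size, in the order of replicates 1, 2 and 3. Changes are log2 of adenoma over Min mucosa with their SE, and a gene is called at an adjusted p under 0.05 in edgeR's quasi-likelihood test with Benjamini-Hochberg adjustment over all 13657 tested genes.

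Of the 13657 genes, 2801 (20.5%) were called, 1482 higher in adenoma (10.9%) and 1319 lower (9.66%). A change of more than 2-fold was called for 1598 genes (11.7%), 912 higher (6.68%) and 686 lower (5.02%). The 3 adenoma libraries lay above all 3 Min mucosa libraries for 2913 genes (21.3%) and below them for 2586 (18.9%). The median log2 change of all tested genes was 0.02, and the median of its size 0.38. With the replicate number as a block on the 6 libraries alone, 4772 of 12673 tested genes were called, 2374 higher and 2398 lower. Block counts of the lists below compare with these totals, not with the smaller shares of the main fit. Leaving out 1 library at a time gave 1788 to 2453 calls, the fewest without adenoma 3, and 2453 without Min mucosa 1. Chromosome 5, where both groups are heterozygous for PWD, held 867 tested genes, of which 99 were higher and 78 lower, or 20.4%, near the share over all genes.

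**Figure D1:**
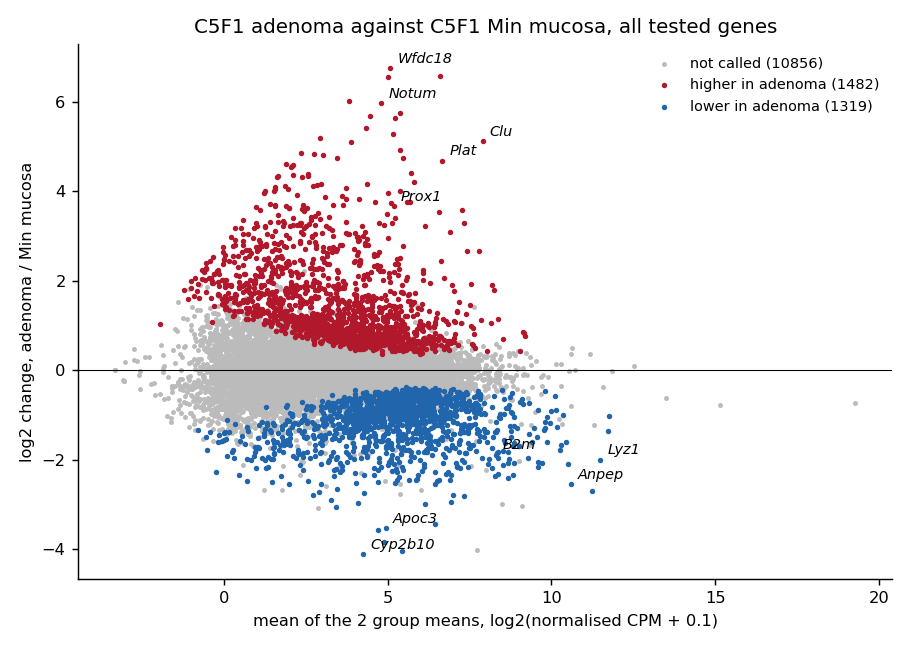
Each point is 1 of 13657 tested genes, with its mean level on the x axis (log2 of normalised CPM + 0.1) and its log2 change, C5F1 adenoma over C5F1 Min mucosa, on the y axis. The 1482 red genes were called higher in adenoma and the 1319 blue genes lower; the largest rises reached log2 changes of 6.75 (Wfdc18), the largest falls -4.12 (Cyp2b10).

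The 10 largest rises were genes that were close to silent in Min mucosa. They were Wfdc18, Slc38a4, Bpifb5, Anxa10, Notum, Muc6, Gkn3, Wif1, Anxa8 and Stra6. Notum and Wif1 are secreted Wnt inhibitors, Gkn3, Muc6 and Anxa10 are genes of stomach epithelium, and Stra6 is the cell surface receptor for retinol-binding protein. Wfdc18, a secreted protein with a whey acidic protein domain (chromosome 11, 83709004 to 83711360, mm10), stood at 73.0, 65.5 and 63.2 CPM in the adenomas, against 0, 0.547 and 0.123 CPM in Min mucosa, with a log2 change of 6.75 ± 0.80 (SE, adjusted p = 2.33e-07). Slc38a4, an amino acid transporter, stood at 158, 229 and 191 CPM in the adenomas, against 0, 2.30 and 1.48 CPM in Min mucosa (6.59 ± 0.61). Stra6 stood at 62.5, 68.5 and 78.5 CPM in the adenomas, against 0.760, 1.42 and 1.73 CPM in Min mucosa (5.29 ± 0.49). None of these groups overlapped, and the lowest adenoma value lay far above the highest Min mucosa value in each. Groups without overlap were a condition for the 10 largest rises, so the separation is no separate result. Anxa10, with 26.2, 27.5 and 29.3 CPM in the adenomas, had 2 reads in all of Min mucosa, and the ratio of pooled counts was 259 (95% counting interval 71.3 to 2140). Anxa8, an annexin, rose by 5.41 and Bpifb5 by 6.56; reads of Bpifb5 can be shared with close family members. All 10 were also called higher in adenoma than in wild-type mucosa, with changes of 6.52 for Stra6, 7.36 for Wfdc18 and 7.83 for Slc38a4.

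Genes that beta-catenin and its partner factors switch on were mostly higher in adenoma. Among feedback inhibitors of the pathway, 11 were higher, 1 lower and 3 not called of 15 tested and 16 listed, with a median of 1.32, beside 10.9% higher and 9.66% lower over all tested genes. Of the 15, 3 did not pass the filter on low counts with the mucosa libraries alone, against 512 of 13657 over all genes. Such genes passed only with adenoma libraries, of C5F1 or another background, and tend to be higher there. Count and median are therefore partly set by the filter. Of the other 12, 9 were called higher. List medians are log2 changes throughout and compare with 0.02 over all genes. Notum (chromosome 11, 120653788 to 120661193), an enzyme that strips the lipid from Wnt ligands, stood at 54.7, 57.01 and 54.4 CPM in the adenomas, against 0, 0.766 and 0.493 CPM in Min mucosa, with a log2 change of 5.97 ± 0.63 (SE, adjusted p = 1.31e-08). Wif1, which binds Wnt ligands outside the cell, stood at 87.2, 68.2 and 62.5 CPM in the adenomas, against 1.52, 0.985 and 1.23 CPM in Min mucosa (5.64 ± 0.66). Nkd1, which acts on Dishevelled inside the cell, stood at 51.2, 61.6 and 79.4 CPM in the adenomas, against 4.56, 5.25 and 8.13 CPM in Min mucosa (3.28 ± 0.38). The adenoma and Min mucosa values of these genes were fully separate, which for Notum and Wif1 was a condition of their choice among the largest rises. The ubiquitin ligases Znrf3 and Rnf43, which remove Frizzled receptors from the membrane, rose by 1.61 and 1.49. Axin2, the scaffold most often used as a readout of the pathway, had a smaller change, with 73.9, 61.8 and 84.9 CPM in the adenomas, against 50.2, 35.02 and 40.3 CPM in Min mucosa, with a log2 change of 0.83 ± 0.28 (SE, adjusted p = 0.0285). Nkd2 was the member called lower (-1.52), and Sfrp1, Sfrp5 and Trabd2b were not called (adjusted p = 0.91, 0.121 and 0.266). With 1 library left out, the call was lost for Axin2 without adenoma 1 or 3 or Min mucosa 2 or 3 and for Nkd2 without adenoma 1, 2 or 3 or Min mucosa 1, 2 or 3 (highest adjusted p = 0.147).

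The transcription factors downstream of Wnt followed, with 9 higher, 2 lower and 4 not called genes of 15 tested and 15 listed, with a median of 1.85. Here too, 3 of the 15 did not pass the filter with the mucosa libraries alone, which partly sets that count and median. Of the other 12, 6 were called higher. Prox1 (chromosome 1, 190118035 to 190170827), a homeobox factor, stood at 50.3, 66.9 and 84.1 CPM in the adenomas, against 5.32, 5.03 and 4.80 CPM in Min mucosa, with a log2 change of 3.68 ± 0.34 (SE, adjusted p = 4.51e-09). Lef1, a DNA-binding partner of beta-catenin that the mature gut epithelium hardly expresses, stood at 4.94, 5.66 and 5.78 CPM in the adenomas, against 0, 0.438 and 0.370 CPM in Min mucosa (3.11 ± 0.56). Its homologue Tcf7 rose by 2.12, Sox4 by 2.25, the crypt factor Sox9 by 1.56, and the stem cell factor Ascl2 by 1.85. Etv4, an ETS family factor, rose by 4.13. Hnf4a and Cdx2, factors that maintain intestinal differentiation, fell by 0.73 and 0.70. Myc, a classical target in colorectal cancer cells, was at 28.2, 21.99 and 28.4 CPM in the adenomas, against 22.8, 15.7 and 11.6 CPM in Min mucosa, a log2 change of 0.72 ± 0.33 that was not called (adjusted p = 0.114). The groups of Myc overlapped, since Min mucosa 1 exceeded adenoma 2. On leaving out 1 library, the call was lost for Ascl2 without Min mucosa 3 and for Cdx2 without adenoma 3 (highest adjusted p = 0.0788). With the replicate block, Myc was called (adjusted p = 0.00496).

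Sp5, a zinc finger factor that Wnt switches on directly in many tissues, was at 11.9, 16.8 and 20.1 CPM in the adenomas, against 0.760, 2.63 and 2.22 CPM in Min mucosa, with a log2 change of 2.73 ± 0.55 (SE, adjusted p = 0.000263), with no overlap. Its promoter is shown because it holds the core letters bound by Tcf and Lef factors, CTTTGAT or CTTTGAA, searched on both strands from 250 bases before to 50 bases after the annotated start (RefSeq, GRCm38.p6, the mm10 build). The window of Sp5 is chr2:70474673-70474972 on the plus strand, with the match in capitals beginning at -104 from the start.
Sp5 promoter: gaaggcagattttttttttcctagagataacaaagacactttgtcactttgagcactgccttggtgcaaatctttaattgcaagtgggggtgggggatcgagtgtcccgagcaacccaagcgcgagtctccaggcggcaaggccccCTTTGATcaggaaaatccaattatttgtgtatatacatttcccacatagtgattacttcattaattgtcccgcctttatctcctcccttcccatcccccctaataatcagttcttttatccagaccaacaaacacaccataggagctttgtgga
Such a match stood in 753 of 10160 tested genes with a promoter in the table (7.41%), in 92 of 1109 genes called higher (8.30%), and in 74 of 1000 called lower (7.40%). It stood in 2 of 12 Wnt-driven transcription factors and 0 of 7 feedback inhibitors with a promoter in the table. Wnt-bound elements commonly lie outside such short windows, and a match is a description of letters only.

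**Figure D2:**
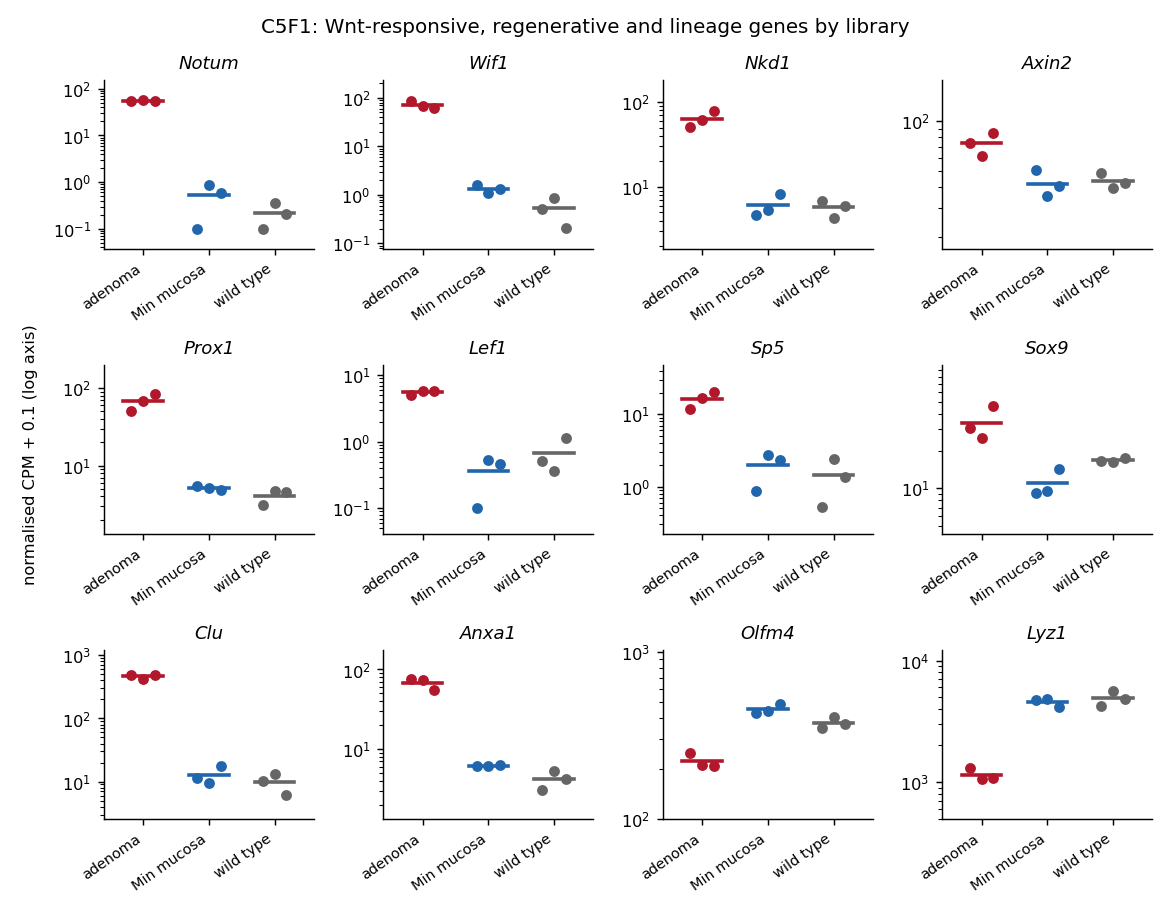
Each point is 1 library, in normalised CPM + 0.1 on log axes whose ranges differ between panels, for adenoma, Min mucosa and wild-type mucosa of C5F1; bars are group means (n = 3 each). All 3 adenomas lay above both kinds of mucosa for Notum, Wif1, Nkd1, Axin2, Prox1, Lef1, Sp5, Sox9, Clu and Anxa1, and below them for Olfm4 and Lyz1.

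Stem cell genes split. Of 18 tested genes of the 18 listed, 10 were higher, 2 lower and 6 not called, with a median log2 change of 0.74. The intestinal stem cell receptor Lgr5 was at 24.4, 19.1 and 33.04 CPM in the adenomas, against 10.6, 8.32 and 11.3 CPM in Min mucosa, with a log2 change of 1.32 ± 0.26 (SE, adjusted p = 0.000324). Prom1 rose by 1.93, Tnfrsf19 by 2.33 and Igfbp4, an insulin-like growth factor binding protein, by 2.68. Olfm4, which marks the same crypt base cells and is restrained by Wnt and maintained by Notch, went the other way, with 250.1, 209.6 and 208 CPM in the adenomas, against 434, 443 and 491 CPM in Min mucosa, with a log2 change of -1.03 ± 0.25 (SE, adjusted p = 0.0026). Neither gene's groups overlapped. Smoc2 was not called (adjusted p = 0.0748). The list shares Axin2, Ascl2, Sox9, Rnf43 and Lgr5 with the Wnt lists above. Among Eph receptors and ephrins, which sort cells along the crypt axis, 4 were higher, 1 lower and 5 not called of 10 tested and 10 listed, with a median of 0.50: Ephb3 rose by 1.99 and Ephb2 by 1.05. In this list 2 were lower with the replicate block. Other Wnt targets counted 7 higher, 1 lower and 8 not called genes of 16 tested and 18 listed, with a median of 0.44. The adhesion receptor Cd44 was at 166, 161 and 180.1 CPM in the adenomas, against 41.04, 39.2 and 39.8 CPM in Min mucosa (2.07 ± 0.24), and Pla2g2a, a secreted phospholipase known as a modifier of Min tumour number, was at 66.02, 82.3 and 81.2 CPM in the adenomas, against 11.4, 26.04 and 16.3 CPM in Min mucosa (2.02 ± 0.35). Ccnd1, often cited as a Wnt target, was at 106, 86.8 and 102 CPM in the adenomas, against 154, 76.2 and 68.1 CPM in Min mucosa with no call (adjusted p = 0.978). Among Apc and its destruction complex partners, 1 was higher, 0 lower and 12 not called of 13 tested and 13 listed, with a median of -0.01; Ctnnb1, which encodes beta-catenin, had a log2 difference of 0.14 ± 0.33 without a call. Smoc2 was called in the fit with the replicate block (adjusted p = 0.0446).

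Several genes of stomach epithelium that were close to silent in Min mucosa rose in adenoma. Of 21 listed gastric genes, 12 passed the filter on low counts, and 9 of these 12 did not pass it on the mucosa libraries alone, against 512 of 13657 over all genes. A gene that passes only with adenoma libraries, of C5F1 or another background, tends to be higher there. The count of 11 higher, 0 lower and 1 not called and the median of 4.45 are therefore largely set by the filter. Of the 3 that passed on mucosa alone, 2 were called higher. The other 9 listed genes had too few counts to test. Ctse, a protease of gastric surface cells, stood at 79.4, 81.3 and 97.9 CPM in the adenomas, against 2.28, 3.06 and 2.96 CPM in Min mucosa, with a log2 change of 4.75 ± 0.47 (SE, adjusted p = 1.31e-08). Gkn3 stood at 50.9, 38.8 and 39.9 CPM in the adenomas, against 0, 0.438 and 0.739 CPM in Min mucosa (5.69 ± 0.80), and Muc6, the mucin of deep gastric glands and of duodenal glands, at 72.7, 33.3 and 138 CPM in the adenomas, against 0, 1.09 and 1.60 CPM in Min mucosa (5.75 ± 0.71). The tight junction protein of stomach Cldn18 rose by 2.77 and the water channel Aqp5 by 2.65. Summed over the 12 tested genes, the level was 311 to 441 CPM in the adenomas, against 36.9 to 66.1 CPM in Min mucosa. Onecut2, a transcription factor from the list of proximal intestine, rose by 4.92.

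Genes of fetal and regenerating gut epithelium were mostly higher. Of 23 tested genes of the 28 listed, 17 were higher, 0 lower and 6 not called, with a median log2 change of 2.15. Clu, a chaperone that marks revival stem cells after injury (chromosome 14, 65968483 to 65981548), was at 489, 416 and 486 CPM in the adenomas, against 11.4, 9.52 and 17.4 CPM in Min mucosa, with a log2 change of 5.13 ± 0.66 (SE, adjusted p = 1.11e-06). Anxa1 was at 74.7, 74.01 and 55.5 CPM in the adenomas, against 6.08, 6.02 and 6.16 CPM in Min mucosa (3.42 ± 0.34). The adenoma and Min mucosa values did not overlap for Clu or Anxa1. The interleukin-1 receptor antagonist Il1rn rose by 3.10 and osteopontin, Spp1, by 3.69. Ly6a, which encodes the injury marker Sca-1, was at 29.96, 27.9 and 22.99 CPM in the adenomas, against 10.6, 12.04 and 10.8 CPM in Min mucosa and was not called (adjusted p = 0.0801). EGF family ligands and receptors counted 8 higher, 2 lower and 3 not called genes of 13 tested and 15 listed, with a median of 0.64. The ligands Nrg1, Areg, Ereg and Btc rose by 2.43, 2.15, 1.68 and 1.92, and the receptor Egfr rose by 0.80 while Erbb3 fell by 0.95. For this list the count of higher genes was 5 without adenoma 3 or Min mucosa 3. In leave-one-out fits, the call was lost for Areg and Erbb3 without Min mucosa 3, for Ereg without adenoma 3, and for Egfr without Min mucosa 1 (highest adjusted p = 0.108). With the replicate block, Ly6a was called (adjusted p = 2.74e-05).

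**Figure D3:**
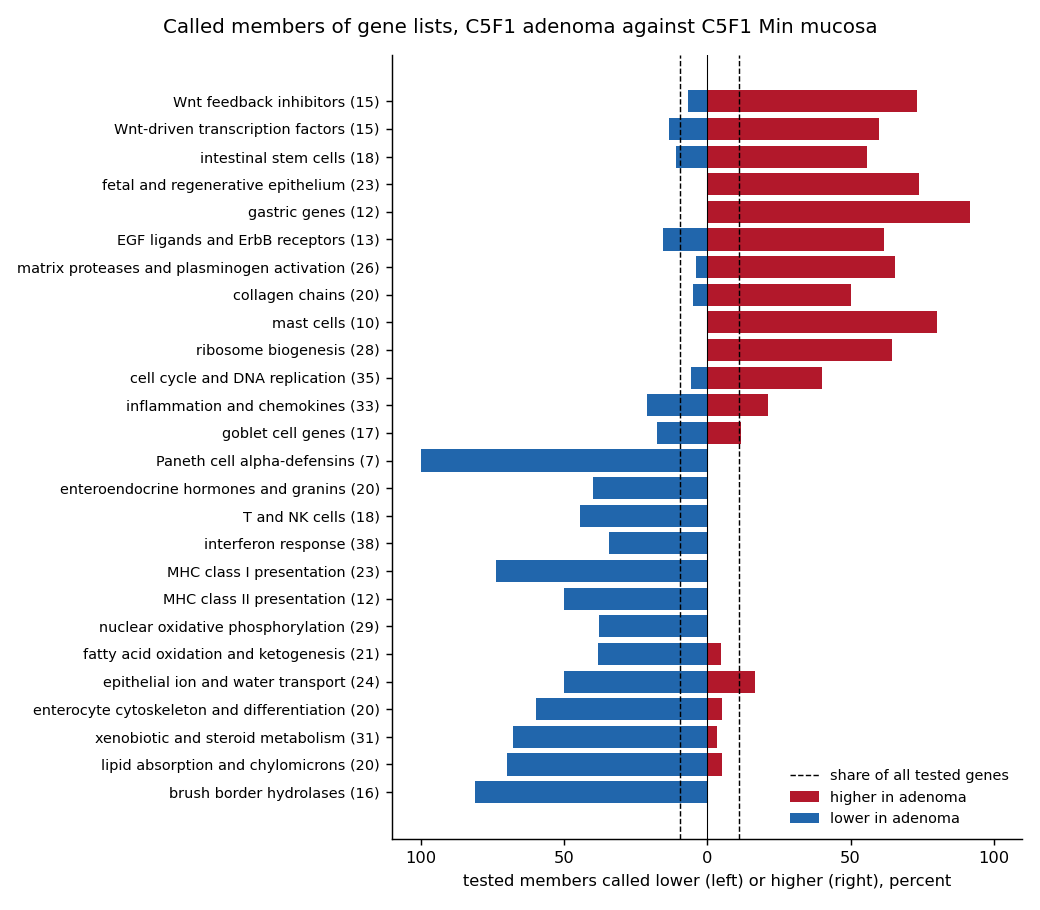
Bars give the percent of tested members called higher (right) or lower (left) in C5F1 adenoma against C5F1 Min mucosa, with the number of tested members in brackets; dashed lines mark the share of all tested genes, 10.9% higher and 9.66% lower. Gastric, fetal and Wnt lists extend to the right, and absorptive, defensin and MHC lists to the left; the filter on low counts largely sets the share of the gastric list, and 6 of the 10 tested mast cell genes passed it only with the adenoma libraries. So did 3 of 15 genes in each Wnt list, 4 of 26 matrix protease genes and 7 of 33 inflammation genes. With the adenoma libraries alone, 5 of 20 enteroendocrine, 5 of 18 T and NK cell, 2 of 12 class II and 3 of 31 xenobiotic genes did not pass.

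Among secretory lineages, the Paneth cell defensins were lower as a whole. Of 7 tested genes of the 15 listed, 0 were higher, 7 lower and 0 not called, with a median log2 change of -2.44. Alpha-defensins are antimicrobial peptides of Paneth cells, and reads can be shared between their near-identical copies, so single members are uncertain. Defa26, 1 of the 10 largest falls, was at 5.24, 2.83 and 3.30 CPM in the adenomas, against 34.2, 28.1 and 27.97 CPM in Min mucosa (-2.96 ± 0.38), and Defa22 at 40.4, 23.9 and 19.4 CPM in the adenomas, against 223, 224 and 199 CPM in Min mucosa (-2.95 ± 0.77). AY761184, which is in no list here, is also among the 10 largest falls, had no position in the annotation used and was at 20.4, 14.2 and 12.2 CPM in the adenomas, against 165, 113 and 99.2 CPM in Min mucosa (-3.00 ± 0.63). The summed level of the 7 tested defensins was 133 to 224 CPM in the adenomas, against 791 to 1019 CPM in Min mucosa. Lyz1, the Paneth cell lysozyme, was at 1295, 1070 and 1079 CPM in the adenomas, against 4729, 4824 and 4162 CPM in Min mucosa, with a log2 change of -1.99 ± 0.36 (SE, adjusted p = 0.000165). Other Paneth cell genes went both ways, at 4 higher, 3 lower and 8 not called genes of 15 tested and 15 listed, with a median of -0.35; Cd24a rose by 0.99, and Sox9 and Pla2g2a, which Wnt also drives, also rose. For this list the count of lower genes was 7 with the replicate block.

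Goblet cell genes counted 2 higher, 3 lower and 12 not called genes of 17 tested and 17 listed, with a median of -0.29. The mucin Muc2 was at 3752, 1366 and 2725 CPM in the adenomas, against 2668, 1158 and 2298 CPM in Min mucosa and was not called (adjusted p = 0.55) with overlapping groups. Retnlb, a goblet cell product induced by microbes and worms, was at 43.04, 9.54 and 16.1 CPM in the adenomas, against 3.04, 1.64 and 0.739 CPM in Min mucosa, with a log2 change of 3.70 ± 0.90 (SE, adjusted p = 0.00172), while Zg16 and Fcgbp, of mature goblet cells, fell by 1.04 and 1.02. For this list the count of lower genes was 6 with the replicate block, 1 without adenoma 2 or 3 and 6 without adenoma 1, and the count of higher genes was 4 with the block and 1 without adenoma 1 or 3 or Min mucosa 1 or 3. Among enteroendocrine hormones and granins, 0 were higher, 8 lower and 12 not called of 20 tested and 23 listed, with a median of -1.08. Of the 20, 5 did not pass the filter on low counts with the adenoma libraries alone, against 731 of 13657 over all genes. Genes that pass only with mucosa libraries tend to be higher there, so count and median are partly set by the filter. Nts, the neurotensin precursor, fell by 2.04, Sst, the somatostatin precursor, by 1.63 and the granin Chga by 1.19. Gcg, the precursor of glucagon-like peptides, was at 9.89, 10.1 and 9.36 CPM in the adenomas, against 22.04, 21.1 and 21.8 CPM in Min mucosa (-1.12 ± 0.28) with no overlap. No member was called higher, and the count of lower genes was 5 without adenoma 3 or Min mucosa 2 or 3. Tuft cell genes counted 1 higher, 0 lower (3 with the replicate block) and 11 not called genes of 12 tested and 19 listed, with a median of -0.14; the call was Avil (2.65), an actin-binding protein, while Dclk1, the marker most used for tuft cells, was at 29.1, 11.8 and 20.1 CPM in the adenomas, against 30.4, 12.9 and 17.6 CPM in Min mucosa (adjusted p = 0.936). With 1 library left out, the call was lost for Zg16 without adenoma 2 or 3 or Min mucosa 2, for Fcgbp without adenoma 2 or 3 or Min mucosa 3, and for Chga without adenoma 2 or 3 or Min mucosa 1 or 2 (highest adjusted p = 0.106).

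Most genes of the absorptive program were lower in adenoma. Among brush border hydrolases, 0 were higher (1 with the replicate block), 13 lower and 3 not called of 16 tested and 18 listed, with a median of -1.91. Dpp4, a peptidase that also cleaves incretins, was at 177, 186 and 89.3 CPM in the adenomas, against 765, 879 and 648 CPM in Min mucosa, with a log2 change of -2.34 ± 0.29 (SE, adjusted p = 6.49e-07). Anpep, aminopeptidase N, was at 456, 355 and 543 CPM in the adenomas, against 4319, 1407 and 2178 CPM in Min mucosa (-2.54 ± 0.44). No adenoma reached the lowest Min mucosa value of Dpp4 or Anpep. Genes of enterocyte cytoskeleton and differentiation counted 1 higher, 12 lower and 7 not called genes of 20 tested and 20 listed, with a median of -0.97; Hnf4g, a nuclear receptor of enterocytes, fell by 1.79 and Klf4 by 1.50, and the keratin Krt18 was the 1 called higher, at 546, 452 and 409.6 CPM in the adenomas, against 149.7, 130.5 and 128 CPM in Min mucosa (1.79 ± 0.29). Lipid absorption genes counted 1 higher, 14 lower and 5 not called genes of 20 tested and 20 listed, with a median of -1.57. Fabp2, the intestinal fatty acid binding protein, was at 868, 683 and 396 CPM in the adenomas, against 5199, 4168 and 3233 CPM in Min mucosa (-2.69 ± 0.58). Mttp, which loads lipid onto apolipoprotein B, fell by 2.05, the sterol exporter Abcg8 by 1.68 and Apob by 1.37. Scarb1, a lipoprotein receptor, was the 1 member called higher (1.50). Nutrient transporters counted 4 higher, 10 lower and 6 not called genes of 20 tested and 20 listed, with a median of -1.52. Slc6a19 and Slc15a1, which take up neutral amino acids and peptides at the brush border, fell by 2.18 and 2.42. The glucose transporter Slc2a1, by contrast, was at 50.3, 78.1 and 72.4 CPM in the adenomas, against 9.12, 14.8 and 12.7 CPM in Min mucosa (2.37 ± 0.33), and the amino acid transporter Slc38a1 rose by 0.97.

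Genes of drug and steroid metabolism were mostly lower. Of 31 tested genes of the 32 listed, 1 was higher, 21 lower and 9 not called, with a median log2 change of -1.77. Of the 31, 3 did not pass the filter with the adenoma libraries alone, which partly sets that count and median. Cyp2b10, a cytochrome P450 of drug metabolism, had the largest fitted fall under the naming rule, with 1.75, 2.31 and 1.51 CPM in the adenomas, against 11.4, 61.9 and 35.1 CPM in Min mucosa, with a log2 change of -4.12 ± 1.50 (SE, adjusted p = 0.0378). Cyp3a11 was at 8.14, 27.4 and 6.75 CPM in the adenomas, against 54.7, 324 and 98.3 CPM in Min mucosa (-3.43 ± 1.02). Both varied several-fold among the Min mucosa libraries. Their groups did not overlap, which was a condition for the largest falls. Nr1i2, the pregnane X receptor that switches on such genes, fell by 1.09, the sulfotransferase Sult1b1 by 1.72 and the esterase Ces2c by 1.77. The glutathione transferase Gsta4 was the 1 member called higher (1.35). Reads of Cyp, Ugt and Ces genes can be shared between close copies. Among the remaining largest falls, Slc5a12 and Slc5a11, sodium-coupled transporters of lactate and of inositol, were at 4.94, 6.41 and 2.48 CPM in the adenomas, against 89.7, 101 and 54.7 CPM in Min mucosa for Slc5a12 (-4.03 ± 0.74) and at 3.78, 4.40 and 3.03 CPM in the adenomas, against 46.4, 44.4 and 52.9 CPM in Min mucosa for Slc5a11 (-3.56 ± 0.64). Adh6a, an alcohol dehydrogenase, fell by 3.05. Retinoid and aldo-keto metabolism counted 2 higher, 8 lower and 10 not called genes of 20 tested and 25 listed, with a median of -0.67; the sister genes Akr1b8 and Akr1b7 moved in opposite directions, at 2.38 and -2.35. On leaving out 1 library, the call was lost for Cyp2b10 without adenoma 1, 2 or 3 or Min mucosa 2 or 3, for Cyp3a11 without adenoma 1 or 3 or Min mucosa 2, for Gsta4 without adenoma 1 or 2 or Min mucosa 1, 2 or 3, and for Adh6a without adenoma 1, 2 or 3 or Min mucosa 1, 2 or 3 (highest adjusted p = 0.135).

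For part of these genes the size of the fall depended on the mucosa used for comparison. Apoc3, an apolipoprotein of chylomicrons, was at 5.82, 4.84 and 3.85 CPM in the adenomas, against 31.9, 57.5 and 80.5 CPM in Min mucosa, with a log2 change of -3.53 ± 0.94 (SE, adjusted p = 0.00547), but wild-type mucosa held 12.7, 8.96 and 9.51 CPM, and adenoma against wild type had -1.04 ± 0.95 (adjusted p = 0.472). Cyp2b10 was at 5.92, 1.82 and 4.02 CPM in wild-type mucosa (-0.79 ± 1.70 for adenoma against wild type, adjusted p = 0.778). Cyp3a11 and Adh6a were likewise not called against wild type (adjusted p = 0.229 and 0.529). Dpp4 and Anpep were called lower against wild type too (log2 change -2.13 and -2.21). Both comparisons use the same adenoma libraries. Over the lipid list the median was -1.57 against Min mucosa and -0.84 against wild type, with 8 genes called lower against wild type; Min mucosa over wild type had a median of 0.65. For brush border hydrolases the medians were -1.91 and -1.48, for drug and steroid metabolism -1.77 and -1.29, and for nutrient transporters -1.52 and -0.50, with 10, 16 and 8 genes called lower against wild type. The share of genes called lower against wild type was 9.85% over all genes tested. Markers of intestinal region also differed between the groups. Lct, lactase of proximal intestine, was at 8.43, 25.8 and 38.4 CPM in the adenomas, against 226, 234 and 749 CPM in Min mucosa, and at 1.27, 2.47 and 3.81 CPM in wild-type mucosa. Gata4, a factor of jejunum and duodenum, was at 18.03, 22.1 and 26.6 CPM in the adenomas, against 38.0, 58.9 and 57.3 CPM in Min mucosa, and at 6.34, 6.10 and 13.3 CPM in wild-type mucosa. Fabp6, the bile acid binding protein of ileum, was at 590.4, 596 and 324 CPM in the adenomas, against 789, 1051 and 1028 CPM in Min mucosa, and at 4185, 2913 and 2309 CPM in wild-type mucosa. Min mucosa was thus the highest group for Lct and Gata4 and lay between adenoma and wild type for Fabp6; none of the 3 genes was called in these comparisons. Over the 15 proximal genes the summed level was 642 to 907 CPM in adenoma, 1818 to 2355 CPM in Min mucosa and 1158 to 1495 CPM in wild-type mucosa. Over 10 ileal bile acid genes it was 653 to 1087 CPM in adenoma, 1952 to 2377 CPM in Min mucosa and 4071 to 6609 CPM in wild-type mucosa. The part of intestinal position in these falls was not tested. In leave-one-out fits, the call was lost for Cyp2b10 without adenoma 1, 2 or 3 or Min mucosa 2 or 3, for Cyp3a11 without adenoma 1 or 3 or Min mucosa 2, and for Adh6a without adenoma 1, 2 or 3 or Min mucosa 1, 2 or 3 (highest adjusted p = 0.135). Lct, Gata4 and Fabp6 were called in the fit with the replicate block (adjusted p = 2.78e-08, 7.34e-06 and 0.00182). They were also called without a block when only the compared groups were fitted (adjusted p = 0.000692, 0.00123 and 0.0245).

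**Figure D4:**
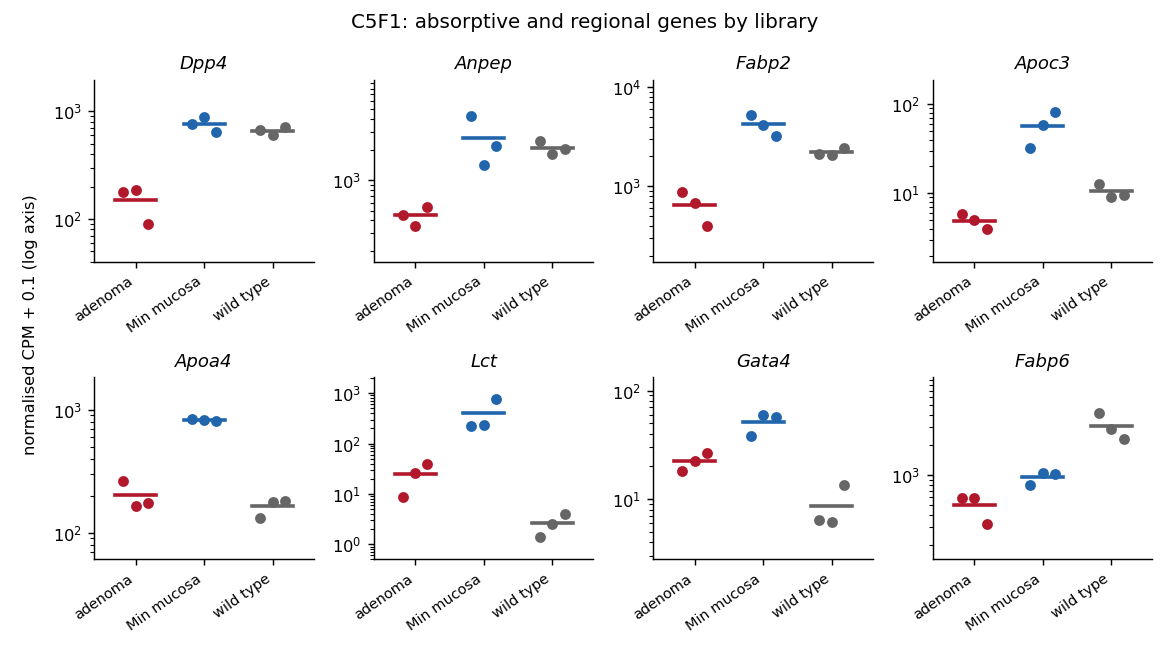
Each point is 1 library, in normalised CPM + 0.1 on log axes whose ranges differ between panels, for adenoma, Min mucosa and wild-type mucosa of C5F1; bars are group means (n = 3 each). Dpp4 and Anpep were at similar levels in both kinds of mucosa, whereas Apoc3, Apoa4, Lct and Gata4 were highest in Min mucosa and Fabp6 was highest in wild-type mucosa.

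Antigen presentation genes were lower in adenoma. In the MHC class I list, 0 were higher, 17 lower and 6 not called of 23 tested and 25 listed, with a median of -1.13. B2m, the light chain of every class I molecule, was at 156, 129.6 and 113 CPM in the adenomas, against 616, 429.7 and 438 CPM in Min mucosa, with a log2 change of -1.89 ± 0.28 (SE, adjusted p = 8.55e-06). Tap1, a chain of the peptide transporter, was at 25.3, 27.9 and 14.2 CPM in the adenomas, against 79.8, 94.5 and 58.5 CPM in Min mucosa (-1.77 ± 0.53), and Psmb9, a subunit of the immunoproteasome, at 21.8, 15.9 and 9.22 CPM in the adenomas, against 72.2, 54.9 and 35.6 CPM in Min mucosa (-1.77 ± 0.48). No adenoma library of B2m, Tap1 or Psmb9 reached the lowest Min mucosa library. H2-K1 and H2-D1, the classical heavy chains, fell by 1.24 and 1.03, and the non-classical H2-T3 and H2-Q1 fell by 1.76 and 2.75, with reads that can be shared between H2 copies. For class I the count of lower genes was 10 without adenoma 3. Class II genes, which present peptides to helper T cells, counted 0 higher (1 with the replicate block), 6 lower and 6 not called genes of 12 tested and 14 listed, with a median of -1.44; H2-Aa was at 212, 193 and 122 CPM in the adenomas, against 809, 739 and 678 CPM in Min mucosa (-2.08 ± 0.67), and the count of lower genes was 1 without adenoma 3 or Min mucosa 2 and 2 without adenoma 2. Of the 12 class II genes, 2 did not pass the filter with the adenoma libraries alone, which partly sets their count and median. Ubd, an interferon-induced ubiquitin-like modifier among the 10 largest falls, was at 5.53, 4.62 and 0.275 CPM in the adenomas, against 106, 47.4 and 13.7 CPM in Min mucosa (-3.84 ± 1.19). With 1 library left out, the call was lost for Tap1 without adenoma 3 or Min mucosa 2, for Psmb9 without adenoma 3, for H2-Aa without adenoma 2 or 3 or Min mucosa 2, and for Ubd without adenoma 3 or Min mucosa 1 (highest adjusted p = 0.102).

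Interferon response genes counted 0 higher, 13 lower and 25 not called genes of 38 tested and 38 listed, with a median of -0.90. Ifih1, a sensor of viral RNA, fell by 1.22. The transcription factor Irf1 was at 109, 85.2 and 54.7 CPM in the adenomas, against 162, 180 and 132 CPM in Min mucosa (-0.93 ± 0.33) with no overlap, and Irf7 fell by 0.89. Igtp, Iigp1 and Isg15 were not called (adjusted p = 0.0609, 0.0798 and 0.33). For this list the count of lower genes was 24 with the replicate block, 6 without adenoma 2 or 3 and 8 without Min mucosa 1 or 2. Genes of T and NK cells, which are a source of interferon-gamma, were lower beside them. Of 18 tested genes of the 21 listed, 0 were higher, 8 lower and 10 not called, with a median log2 change of -1.28. Of the 18, 5 did not pass the filter on low counts with the adenoma libraries alone, against 731 of 13657 over all genes. That count and median are therefore partly set by the filter. Gzma, a protease of cytotoxic cells, was at 25.3, 11.3 and 9.77 CPM in the adenomas, against 107, 61.5 and 47.7 CPM in Min mucosa (-2.22 ± 0.66), and Cd8a at 5.82, 2.76 and 2.20 CPM in the adenomas, against 18.2, 15.1 and 10.7 CPM in Min mucosa (-2.00 ± 0.67). The summed level of the 18 genes was 61.7 to 106 CPM in adenoma, against 185 to 354 CPM in Min mucosa, with the highest value in Min mucosa 1. For T and NK cell genes the count of lower genes was 13 with the replicate block, 0 without adenoma 2, 1 without adenoma 3 or Min mucosa 1 and 5 without Min mucosa 2. Their part in the fall of interferon and MHC genes was not tested. On leaving out 1 library, the call was lost for Irf1 without adenoma 2 or 3 or Min mucosa 1 or 2, for Irf7 without adenoma 3, for Gzma without adenoma 2 or 3 or Min mucosa 1, and for Cd8a without adenoma 2 or 3 or Min mucosa 2 (highest adjusted p = 0.181). With the replicate block, Igtp, Iigp1 and Isg15 were called (adjusted p = 2.74e-06, 5.16e-05 and 0.0471).

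The promoters of B2m, Gbp2 and Tap1 are shown for the letters GAAA, any 2 bases and GAAA again, the core bound by interferon regulatory factors, searched on both strands in the same window of RefSeq starts. The B2m window is chr2:122147437-122147736 and the Gbp2 window chr3:142620413-142620712, both on the plus strand, with the match in capitals (on the other strand in Gbp2, where it reads TTTC, 2 bases and TTTC). Gbp2 encodes a GTPase of cell-autonomous defence and fell by 1.49. The third window, chr17:34187306-34187605 on the plus strand, belongs to Tap1 and holds no match; it overlaps the window of Psmb9, which is read from the opposite strand (chr17:34187281-34187580), so that this stretch faces both genes, which changed by -1.77 and -1.77.
B2m promoter: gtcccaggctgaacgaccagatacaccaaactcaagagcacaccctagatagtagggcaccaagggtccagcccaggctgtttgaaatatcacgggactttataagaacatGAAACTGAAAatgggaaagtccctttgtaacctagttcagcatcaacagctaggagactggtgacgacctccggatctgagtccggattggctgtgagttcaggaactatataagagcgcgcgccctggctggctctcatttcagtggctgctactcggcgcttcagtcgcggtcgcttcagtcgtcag
Gbp2 promoter: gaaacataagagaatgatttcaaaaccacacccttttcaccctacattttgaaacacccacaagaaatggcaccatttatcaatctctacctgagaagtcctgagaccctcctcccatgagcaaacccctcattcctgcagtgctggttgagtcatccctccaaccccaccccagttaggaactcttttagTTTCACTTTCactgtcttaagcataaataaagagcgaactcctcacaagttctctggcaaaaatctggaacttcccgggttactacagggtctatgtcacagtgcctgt
Tap1 and Psmb9 promoter: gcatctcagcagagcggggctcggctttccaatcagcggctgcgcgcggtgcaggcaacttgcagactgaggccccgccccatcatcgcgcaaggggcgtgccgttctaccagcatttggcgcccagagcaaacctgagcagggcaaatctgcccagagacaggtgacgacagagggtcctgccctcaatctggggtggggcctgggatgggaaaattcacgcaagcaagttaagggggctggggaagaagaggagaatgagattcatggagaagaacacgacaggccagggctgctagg
The match stood in 388 of 10160 tested genes with a promoter in the table (3.82%), in 52 of 1000 called lower (5.20%), in 40 of 1109 called higher (3.61%), in 18 of 27 interferon response genes and in 3 of 16 MHC class I genes. Of the 18 interferon genes with a match, 5 were called lower, with a median of -0.91, and of the 9 without a match 4 were, with a median of -0.49. The list was assembled from known interferon targets, so its share of matches is no independent result. In leave-one-out fits, the call was lost for Gbp2 without Min mucosa 2, for Tap1 without adenoma 3 or Min mucosa 2, and for Psmb9 without adenoma 3 (highest adjusted p = 0.0846).

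Genes of matrix remodelling were mostly higher. Of 26 tested genes of the 26 listed, 17 were higher, 1 lower and 8 not called, with a median log2 change of 1.90. Of the 26, 4 did not pass the filter on the mucosa libraries alone, which partly sets that count and median. Of the other 22, 13 were called higher. Plat, tissue plasminogen activator (chromosome 8, 22757722 to 22782848), was at 201, 216 and 168 CPM in the adenomas, against 0.760, 10.1 and 7.15 CPM in Min mucosa, with a log2 change of 4.69 ± 0.47 (SE, adjusted p = 2.09e-08). Mmp14, a membrane-bound collagenase, was at 108, 119.8 and 107 CPM in the adenomas, against 22.8, 25.9 and 24.4 CPM in Min mucosa (2.17 ± 0.30). Plau, urokinase, rose by 1.89, Serpine2, which inhibits both activators, by 3.14, and Timp1, a metalloproteinase inhibitor, by 3.02. Both activators and inhibitors of these proteases were thus among the rises. Mmp7, a Paneth cell protease that is also a Wnt target, was at 259, 226 and 182 CPM in the adenomas, against 201, 213 and 145 CPM in Min mucosa and was not called (adjusted p = 0.657). Collagen chains counted 10 higher, 1 lower (2 with the replicate block) and 9 not called genes of 20 tested and 23 listed, with a median of 0.99: Col18a1 rose by 2.02, the basement membrane chain Col4a1 by 1.26 and Col1a1 by 1.69, while Col3a1 was not called (adjusted p = 0.15). Col3a1 was called in the fit with the replicate block (adjusted p = 0.00231).

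Stromal and immune lists differed from each other. Fibroblast genes counted 5 higher, 2 lower and 10 not called genes of 17 tested and 18 listed, with a median of 0.44, and the count of higher genes was 8 with the replicate block, 2 without adenoma 3 or Min mucosa 1 and 3 without Min mucosa 2; 4 were lower with the block. Smooth muscle genes counted 0 higher, 1 lower and 14 not called genes of 15 tested and 15 listed, with a median of -0.97. The replicate block called 12 of the 15 lower, and 11 had all 3 adenomas below all 3 Min mucosa libraries, against 18.9% of all genes. Myh11, the smooth muscle myosin, was at 141, 188 and 193 CPM in the adenomas, against 362, 398 and 385 CPM in Min mucosa (adjusted p = 0.182), with every adenoma below every Min mucosa library and no call. Endothelial genes counted 3 higher, 0 lower and 13 not called genes of 16 tested and 17 listed, with a median of 0.27, with Cdh5 at 1.63, and enteric nerve genes 1 higher, 0 lower (2 with the replicate block) and 11 not called genes of 12 tested and 17 listed, with a median of -0.30. B and plasma cell genes counted 0 higher, 0 lower and 11 not called genes of 11 tested and 18 listed, with a median of -0.59, and myeloid genes 2 higher, 0 lower and 18 not called genes of 20 tested and 24 listed, with a median of -0.30; Arg1, arginase of alternatively activated macrophages, rose by 3.52, whereas the macrophage receptor Csf1r had -0.69 (adjusted p = 0.243). Mast cell genes counted 8 higher, 0 lower and 2 not called genes of 10 tested and 13 listed, with a median of 3.23. Of the 10, 6 did not pass the filter on the mucosa libraries alone, so that count and median are partly set by it; of the other 4, 3 were called higher. Mcpt2, a protease of mucosal mast cells, was at 114, 12.2 and 108 CPM in the adenomas, against 7.60, 1.42 and 6.53 CPM in Min mucosa, with a log2 change of 4.01 ± 1.11 (SE, adjusted p = 0.00807), and Cpa3, carboxypeptidase of mast cells, at 10.8, 1.64 and 11.4 CPM in the adenomas, against 0.760, 0.219 and 0.616 CPM in Min mucosa (3.40 ± 1.28). Adenoma 2 was the lowest adenoma in both. For mast cell genes the count of higher genes was 5 of the 6 tested with the replicate block, 1 without Min mucosa 2, 2 without adenoma 3 or Min mucosa 3 and 4 without adenoma 1, and DESeq2 called 3. Kit, which mast cells share with pacemaker cells, was at 39.8, 32.2 and 38.96 CPM in the adenomas, against 33.4, 36.4 and 40.9 CPM in Min mucosa and was not called. Reads of Mcpt genes can be shared between copies. Of the 20 myeloid genes, 3 did not pass the filter on mucosa alone, and of the other 17, 1 was called higher. Of the 11 B and plasma cell genes, 4 did not pass with the adenoma libraries alone and 2 with the mucosa libraries alone. Of the 12 enteric nerve genes, 4 did not pass with the adenoma libraries alone. The medians of these 2 lists are therefore partly set by the filter. The replicate block called 5 endothelial genes higher and 5 lower; 6 of 7 B and plasma cell genes tested in that fit were lower, as were 4 myeloid genes. The listed names Jchain, Igha, Ighm, Igkc and Iglc2 had no entry among the deposited genes, so they were not measured here. With 1 library left out, the call was lost for Mcpt2 without Min mucosa 2 and for Cpa3 without adenoma 1 or 3 or Min mucosa 2 or 3 (highest adjusted p = 0.129). In DESeq2, Cpa3 was not called (adjusted p = 0.198). With the replicate block, Myh11 and Csf1r were called (adjusted p = 1.93e-05 and 0.000748).

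Inflammation and chemokine genes counted 7 higher, 7 lower and 19 not called genes of 33 tested and 40 listed, with a median of 0.23. Of the 33, 7 did not pass the filter on the mucosa libraries alone, so the count of higher genes is partly set by it. Of the other 26, 4 were called higher. Ptgs2, the inducible cyclooxygenase, was at 18.03, 23.1 and 45.2 CPM in the adenomas, against 3.80, 3.83 and 2.34 CPM in Min mucosa, with a log2 change of 3.06 ± 0.48 (SE, adjusted p = 1.66e-05). Lcn2, a siderophore-binding protein of inflamed epithelium, was at 11.6, 23.1 and 21.3 CPM in the adenomas, against 0.760, 0.985 and 1.48 CPM in Min mucosa (3.71 ± 0.63). Il11, a cytokine of tumour stroma, was at 1.16, 4.32 and 11.4 CPM in the adenomas, against 0, 0.109 and 0 CPM in Min mucosa; Min mucosa held 1 read in all, and the ratio of pooled counts was 112 (95% counting interval 19.7 to 4440). Ccl25, the chemokine that draws T cells to the small intestine, fell by 1.84 and Ccl6 by 1.43. For this list the count of higher genes was 3 without Min mucosa 3 and 4 without adenoma 2. In the prostaglandin list, 4 were higher, 2 lower and 15 not called of 21 tested and 24 listed, with a median of 0.03: with Ptgs2 higher, Hpgd, which breaks prostaglandins down, was at 32.3, 29.9 and 16.8 CPM in the adenomas, against 98.04, 124 and 114 CPM in Min mucosa (-2.09 ± 0.44), and Abcc4, which exports them, rose by 2.58. Ptges and Ptger4, the synthase and a receptor of prostaglandin E2, were not called (adjusted p = 0.179 and 0.752). Antimicrobial genes counted 5 higher, 3 lower and 11 not called genes of 19 tested and 23 listed, with a median of -0.02; Pigr, which carries antibodies into the lumen, fell by 1.60. For the list of antimicrobial genes, the count of lower genes was 6 with the replicate block. In that list, 2 of the 19 did not pass the filter on mucosa alone, and 3 of the other 17 were called higher. Ptges was called in the fit with the replicate block (adjusted p = 0.0497).

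Genes of ribosome biogenesis were mostly higher. Of 28 tested genes of the 28 listed, 18 were higher, 0 lower and 10 not called, with a median log2 change of 0.68. Nop56, a core protein of the particles that modify ribosomal RNA, was at 33.1, 35.7 and 35.9 CPM in the adenomas, against 13.7, 16.1 and 16.3 CPM in Min mucosa, with a log2 change of 1.15 ± 0.21 (SE, adjusted p = 0.000115). Polr1a, the large subunit of RNA polymerase I, rose by 0.91 and Npm1 by 0.86. In this list the count of higher genes was 8 without adenoma 3 and 9 without Min mucosa 2 or 3. Cell cycle genes counted 14 higher, 2 lower and 19 not called genes of 35 tested and 36 listed, with a median of 0.67. Mcm2, of the replicative helicase, was at 61.95, 62.5 and 54.5 CPM in the adenomas, against 30.4, 31.2 and 29.1 CPM in Min mucosa (0.97 ± 0.17) with no overlap, and Rrm2, which makes deoxynucleotides, rose by 1.21. Mki67, the usual proliferation marker, was at 225, 160.5 and 265 CPM in the adenomas, against 267, 125 and 160.1 CPM in Min mucosa and was not called (adjusted p = 0.54), as were Top2a and Pcna (adjusted p = 0.119 and 0.173). In this list the count of higher genes was 25 with the replicate block and 9 without Min mucosa 3. Nuclear genes of oxidative phosphorylation counted 0 higher, 11 lower and 18 not called genes of 29 tested and 29 listed, with a median of -0.51; 22 of the 29 had all 3 adenomas below all 3 Min mucosa libraries, against 18.9% of all genes. Ppargc1a, a coactivator of mitochondrial genes, fell by 1.07 and the succinate dehydrogenase subunit Sdhb by 0.67. In this list the count of lower genes was 24 with the replicate block, 2 without adenoma 3, 3 without Min mucosa 2, 5 without Min mucosa 1 and 6 without adenoma 2. Fatty acid oxidation counted 1 higher (5 with the replicate block), 8 lower and 12 not called genes of 21 tested and 21 listed, with a median of -0.48, with the receptor Ppara at -1.02. In this list the count of lower genes was 4 without adenoma 3 or Min mucosa 2 and 5 without Min mucosa 3. On leaving out 1 library, the call was lost for Ppargc1a without Min mucosa 1, for Sdhb without adenoma 3 or Min mucosa 2, and for Ppara without adenoma 1 or 3 or Min mucosa 2 or 3 (highest adjusted p = 0.0885). With the replicate block, Top2a and Pcna were called (adjusted p = 0.0107 and 0.0212).

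Transport, junction and signalling lists held calls in both directions. Ion and water transport counted 4 higher, 12 lower and 8 not called genes of 24 tested and 26 listed, with a median of -0.62. S100g, the calcium-binding protein calbindin D9k, was at 61.4, 48.8 and 70.8 CPM in the adenomas, against 3.80, 2.95 and 4.19 CPM in Min mucosa, with a log2 change of 3.96 ± 0.92 (SE, adjusted p = 0.00163), and the calcium channel Trpv6 rose by 1.81, while the water channel Aqp1 fell by 1.85 and Guca2b, uroguanylin, by 1.78. Tight junction genes counted 5 higher, 4 lower and 17 not called genes of 26 tested and 26 listed, with a median of 0.03; Cldn1, Cldn2 and Cldn4 rose by 2.14, 1.77 and 1.45, while Cldn15 and Cldn7 fell by 1.36 and 0.79. BMP and TGF-beta signalling counted 4 higher, 1 lower and 18 not called genes of 23 tested and 24 listed, with a median of 0.46, with the activin subunit Inhba at 3.05 and Bmp7 at 1.70, and the replicate block called 11 higher and 3 lower. Notch signalling counted 4 higher, 1 lower and 11 not called genes of 16 tested and 18 listed, with a median of 0.23; the ligand Dll1, of secretory progenitors, fell by 1.01 and Jag2 rose by 1.80, and the count of higher genes was 7 with the replicate block, which called 2 lower, and 2 without adenoma 3. Wnt ligands and niche genes counted 4 higher, 3 lower and 14 not called genes of 21 tested and 23 listed, with a median of -0.12: Wnt6 and Wnt5a rose by 1.73 and 0.99, Wnt3, the ligand made by Paneth cells, fell by 0.79, and the count of higher genes was 2 without adenoma 3 or Min mucosa 1 or 3. Of the 21, 3 did not pass the filter on the mucosa libraries alone, and of the other 18, 2 were called higher. Iron and HIF2 genes counted 5 higher, 2 lower (4 with the replicate block) and 17 not called genes of 24 tested and 25 listed, with a median of 0.27, and the count of higher genes was 9 with the replicate block and 3 without adenoma 2 or 3 or Min mucosa 2 or 3; Slc11a2, the iron importer of the brush border, fell by 0.82. For the list of tight junction and desmosome genes, the count of lower genes was 1 without adenoma 3 and 2 without adenoma 2 or Min mucosa 2. In leave-one-out fits, the call was lost for Trpv6 without adenoma 2 or Min mucosa 2 or 3, for Guca2b without adenoma 3 or Min mucosa 2, for Cldn1 without adenoma 3 or Min mucosa 3, for Cldn7 and Wnt5a without adenoma 2 or 3 or Min mucosa 1 or 3, for Dll1 without adenoma 3 or Min mucosa 2 or 3, for Wnt6 without Min mucosa 3, and for Wnt3 without adenoma 2 or Min mucosa 2 (highest adjusted p = 0.268). In DESeq2, Trpv6 was not called (adjusted p = 0.117). With only the compared groups fitted, Cldn7 was not called (adjusted p = 0.0799).

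Cholesterol synthesis counted 3 higher, 0 lower (1 with the replicate block) and 18 not called genes of 21 tested and 21 listed, with a median of 0.47, and the count of higher genes was 13 with the replicate block, 0 without adenoma 1 or Min mucosa 2 or 3 and 1 without adenoma 2 or 3. DNA methylation enzymes and readers counted 5 higher, 0 lower and 11 not called genes of 16 tested and 18 listed, with a median of 0.14. Dnmt1, the maintenance methyltransferase, was at 77.1, 67.8 and 79.02 CPM in the adenomas, against 67.6, 43.7 and 49.3 CPM in Min mucosa (0.50 ± 0.17), its partner Uhrf1 rose by 0.77 and Dnmt3b by 1.34; the count of higher genes was 0 without adenoma 3 or Min mucosa 2, 1 without Min mucosa 3, 2 without adenoma 1 and 3 without adenoma 2. Imprinted genes counted 3 higher, 0 lower and 13 not called genes of 16 tested and 21 listed, with a median of 0.01. Of the 16, 4 did not pass the filter on the mucosa libraries alone, so the count of higher genes is largely set by it. Of the other 12, 1 was called higher. Cdkn1c, a cyclin-dependent kinase inhibitor, was at 10.5, 10.5 and 9.91 CPM in the adenomas, against 1.52, 2.08 and 3.45 CPM in Min mucosa (1.88 ± 0.39), and H19, a long RNA of its own imprinted cluster on chromosome 7, was at 3.20, 5.51 and 11.2 CPM in the adenomas, against 0, 0.438 and 1.23 CPM in Min mucosa (2.77 ± 0.70). Igf2, the neighbour of H19, was not called (adjusted p = 0.11). Targets of p53 counted 3 higher, 4 lower and 12 not called genes of 19 tested and 20 listed, with a median of -0.07; Cdkn1a fell by 0.75 and Phlda3 rose by 1.95. The remaining lists had at most 15 tested genes each, and their counts compare with 10.9% higher and 9.66% lower over all genes. Reg lectins had 1 higher, 1 lower and 3 not called genes of 5 tested and 7 listed, with a median of -1.19. Ileal bile acid genes had 0 higher, 4 lower and 6 not called genes of 10 tested and 11 listed, with a median of -0.92, and proximal genes had 2 higher, 3 lower and 10 not called genes of 15 tested and 18 listed, with a median of -0.66. Colon genes had 1 higher, 1 lower and 5 not called genes of 7 tested and 16 listed, with a median of -0.63, pancreas genes had 2 higher, 0 lower and 1 not called genes of 3 tested and 15 listed, with a median of 1.71, fat genes had 1 higher, 1 lower and 9 not called genes of 11 tested and 12 listed, with a median of 0.00, and erythroid genes had 0 higher, 0 lower and 2 not called genes of 2 tested and 9 listed, with a median of -0.09. For the block, the count of lower genes was 3 for Reg lectins, 4 for colon genes, 3 for fat genes, 1 for imprinted genes and 1 for DNA methylation genes, and 2 colon genes were higher. For the list of p53 targets and growth arrest, the count of higher genes was 6 with the replicate block. For the list of ileal bile acid handling, the count of lower genes was 7 with the replicate block. For the list of proximal intestine genes, the count of lower genes was 7 with the replicate block. With 1 library left out, the call was lost for Dnmt1 and Uhrf1 without adenoma 1 or 3 or Min mucosa 2 or 3, for Dnmt3b without adenoma 2 or 3 or Min mucosa 2 or 3, and for Cdkn1a without adenoma 2 or 3 or Min mucosa 1 or 2 (highest adjusted p = 0.205). With no filter on low counts, Dnmt1 was not called (adjusted p = 0.0508). With only the compared groups fitted, Dnmt1 and Uhrf1 were not called (adjusted p = 0.0656 and 0.0577). Igf2 was called in the fit with the replicate block (adjusted p = 0.000396).

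Against C5F1 wild-type mucosa, which shares the adenoma libraries with the comparison above, 2733 genes were called in adenoma (20%), 1388 higher (10.2%) and 1345 lower (9.85%), and 3927 with the replicate block on those 6 libraries alone. The 5 smallest p-values were those of Stra6, Tenm4, Slc38a4, Prox1 and Anxa1, all higher; Tenm4, a teneurin of cell contacts, was at 38.4, 28.02 and 50.1 CPM in the adenomas, against 0.846, 1.04 and 1.37 CPM in wild-type mucosa (4.74 ± 0.40). Min mucosa against wild-type mucosa had 0 called genes (0%) in edgeR, 690 with an unadjusted p under 0.05, and 1 in DESeq2. With those 2 groups alone 86 were called, and with the block 152. The genes with the 5 smallest p-values were Gm14137, Ifi27l2b, Myo19, Abca1 and Nudt22. Gm14137, a predicted gene on chromosome 2, was at 6.11, 8.35 and 6.75 CPM in the adenomas, 0.760, 0.656 and 0.616 CPM in Min mucosa and 5.07, 7.14 and 4.02 CPM in wild-type mucosa, so that adenoma and wild type overlapped and Min mucosa lay below both. Its change was -2.58 ± 0.57 for Min mucosa against wild type (adjusted p = 0.0801) and 2.96 ± 0.55 (SE, adjusted p = 3.04e-05) for adenoma against Min mucosa.

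Whether the adenoma change in C5F1 differed from that in the parents was tested as an interaction. Against B6, 0 of 13657 genes were called (0%), with 397 at an unadjusted p under 0.05; against C5, 0 (0%), with 808; and against the mean of the 2 parents, 0 (0%), with 349. The lack of calls does not show that the changes were alike. Some genes were called in other fits. For C5F1 against B6, DESeq2 called 1 gene and the block over the adenoma and Min mucosa libraries of all backgrounds 41, of which 1 was shared, Gcg. Its change was -1.12 in C5F1 and -3.02 in B6, a difference of 1.91 ± 0.40 (adjusted p = 0.418 in edgeR without the block and 0.00747 with it). For C5F1 against C5, DESeq2 called 26 genes, all with a more negative change in C5F1, and the block called 26, of which 25 were more negative; the sets shared 2 genes, Ccl25 and Enpep, and neither gene that follows was called with the block. Dpp4, among the 5 smallest p-values, had -2.34 ± 0.29 in C5F1, against -0.80 ± 0.27 in C5, a difference of -1.54 ± 0.39 (adjusted p = 0.613 in edgeR, 0.0123 in DESeq2 and 0.0515 with the block). Cds1, a lipid enzyme, had -1.30 ± 0.14 in C5F1, against -0.46 ± 0.14 in C5, a difference of -0.84 ± 0.19 (adjusted p = 0.613 in edgeR, 0.000198 in DESeq2 and 0.0643 with the block). For the mean of the parents the smallest p-value was that of Gm14137, with a difference of 2.27 ± 0.64 (adjusted p = 1).

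List medians set side by side, with no test of their difference, had C5 closest to 0 in 39 of 57 lists. The median for lipid absorption was -1.57 in C5F1, -1.15 in B6 and -0.38 in C5. For brush border hydrolases it was -1.91 in C5F1, -1.54 in B6 and -0.63 in C5. For MHC class I it was -1.13 in C5F1, -1.30 in B6 and -0.62 in C5, and for alpha-defensins -2.44 in C5F1, -2.68 in B6 and -1.25 in C5. Gastric genes, subject to the filter named above, had 4.45 in C5F1, 4.39 in B6 and 3.49 in C5, and fetal and regenerative genes 2.15 in C5F1, 1.58 in B6 and 1.48 in C5. Mast cell genes had 3.23 in C5F1, 2.06 in B6 and 0.48 in C5. Over all tested genes the medians of the size of the change were 0.38 in C5F1, 0.41 in B6 and 0.23 in C5, with the smallest in C5. Notum averaged 55.4 ± 1.44 CPM in C5F1 adenoma and 0.420 ± 0.388 CPM in C5F1 Min mucosa, 108 ± 39.8 and 1.14 ± 0.380 CPM in the same tissues of B6, and 18.7 ± 12.6 and 0.282 ± 0.302 CPM in those of C5 (SD, n = 3 each). B2m averaged 133 ± 21.6 CPM in C5F1 adenoma and 494 ± 105 CPM in C5F1 Min mucosa, 113 ± 25.7 and 412 ± 78.1 CPM in B6, and 324 ± 58.9 and 527 ± 49.7 CPM in C5. The interaction of neither gene was called.

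**Figure D5:**
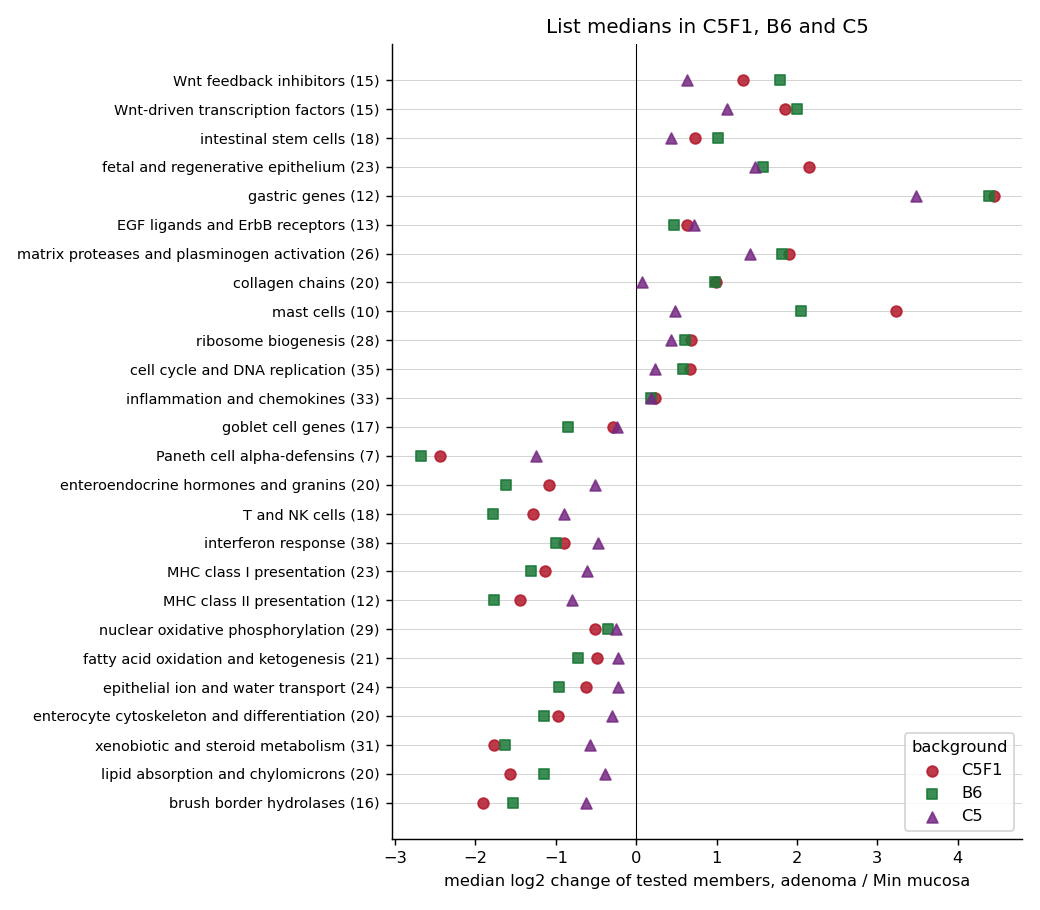
Median log2 change of the tested members of each list (number in brackets), adenoma over Min mucosa, in C5F1 (circles), B6 (squares) and C5 (triangles). The C5 median was closer to 0 for many lists, for example -0.63 for brush border hydrolases, against -1.91 in C5F1; these medians were not tested against each other.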

How the data were processed

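Total RNA from intestinal tissue was depleted of ribosomal RNA and sequenced as single reads, per the labels' protocols. The authors' deposited values are whole-number read counts per gene for 24062 genes. The submitters' processing notes name BWA, HTSeq and mm10, with no versions, and whether strand was used in counting is not given in the sources used here. Reads shared between near-identical genes or between a gene and its antisense partner may therefore be split or misassigned. The summary rows of HTSeq that name no gene took 41.9 to 49.0% of each of the 6 compared libraries and were left out.

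Genes passed edgeR's filterByExpr (minimum count 10, minimum total 15) in a fit of all 39 tissue libraries by group, with TMM scaling, prior count 2, a quasi-likelihood F test and Benjamini-Hochberg adjustment over 13657 genes (R 4.3.3, edgeR 4.0.16). All 39 libraries share 1 estimate of the spread. Sample groups came from the labels' strain, genotype and tissue. All adjusted p-values in the text come from this edgeR test unless another tool is named. For the SE, the log2 change of a second fit with almost no prior count was divided by the square root of F. At low counts that change can differ from the printed one. The adjusted p threshold was 0.05. DESeq2 1.42.0, other scaling, no filter, smaller fits, a replicate block and leaving out libraries were run as alternatives. A listed gene that was not tested had too few counts or no entry of that name among the deposited genes.

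Deviations from the group means of same-numbered adenoma and Min mucosa libraries correlated at 0.228, 0.386 and 0.189. Same-numbered adenoma and wild-type libraries, from mice of different genotype, correlated at 0.17, 0.141 and 0.263. For Min mucosa and wild-type mucosa the values were 0.105, 0.042 and 0.163. Different-numbered libraries of these groups correlated at -0.285 (adenoma 2 and Min mucosa 1) to 0.048 (Min mucosa 2 and wild-type mucosa 3). The labels do not say whether a replicate number marks 1 animal, and these correlations do not decide it. The main fit used no block, so variation shared by a replicate number stays in its spread. All within-group pairs of replicates differed by more than counting noise, with a lowest chi-square per degree of freedom of 8.02. On simulated counts for 13450 genes in the adenoma and Min mucosa comparison, 49 of 100 genes changed 2-fold and 94 of 100 changed 4-fold were recovered, with 6 false calls. Only these 200 genes were changed, and genes of the lowest levels were not among them. The data held 2801 calls, so the adjustment for multiple tests acts differently there and the recovery can differ. Counting intervals cover counting error only.

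The genes named are the 10 largest called rises and falls (mean of at least 5 CPM in the higher group, no overlap), the anchor genes of 57 lists (1095 genes, 956 tested), up to 4 called list members with the smallest p, the 5 smallest p-values of each other comparison, and Apc; some genes that the rule names are not reported here. Nkd2, Sfrp1, Sfrp5, Trabd2b, Hnf4a, Cdx2, Scarb1, Sp5, Gbp2 and Enpep fall outside that rule and were chosen after their values were seen. The lists and comparisons were chosen with earlier results of these data known. Gene positions and promoters are from RefSeq, GRCm38.p6; of 24062 names 22550 matched a symbol, 1352 a synonym and 160 nothing.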

Additional observations from a re-analysis of the deposited data

How the results depend on the processing

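The adenoma and Min mucosa comparison called 2801 genes, and 2502 to 2923 with other scaling, no filter, Rn45s left out or DESeq2. It called 3297 with only the compared groups, 3904 with a replicate block over all backgrounds, and 4772 with the replicate block on the 6 libraries alone. Leaving out 1 library gave 1788 (adenoma 3) to 2453 (Min mucosa 1) calls, and leaving out both replicate 1 libraries, an alternative chosen after seeing the data, gave 2019. Adenoma against wild type called 2733 genes, 3927 with the block, 2994 with only the compared groups, and 1643 (without adenoma 3) to 2269 with 1 library left out. Min mucosa against wild type called 0, but 1 in DESeq2, 86 with only the compared groups and 152 with the block. The C5F1 change minus that of B6 called 0, but 1 in DESeq2, 19 with only the compared groups and 41 with the block. The change minus that of C5 called 0, but 26 in DESeq2 and 26 with the block. The change minus the mean of both called 0, but 10 with the block. The cause of these differences was not tested.

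Of 187 genes named, 159 were called, 118 of them also with any 1 of the 6 libraries left out, and none reversed direction in these alternatives. The block on the 6 libraries tested 181 of the 187, without Cldn1, Trpv6, Dnmt3b, Il11, Sfrp5 and Trabd2b, and among these 181 it changed no call beyond those named in the text. Fitting only the compared groups, without a block, added calls for 11 named genes. These were Lct, Gata4, Fabp6, Ly6a, Myc, Myh11, Csf1r, Col3a1, Igf2, Igtp and Iigp1. DESeq2 added Igtp and Smoc2. Of 33 list counts of 1 or 2 genes, 18 moved by more than 1.5 times on leaving out some 1 library, to at most 3 genes, and of 27 counts of 0, 4 became 1. The simulated recovery of 2-fold changes was 49 of 100, with far fewer genes changed than were called in the data. It therefore does not give the recovery in the data itself. The parts of depth and of replicate spread in it were not tested.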

Other observations

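Small nucleolar and small nuclear RNAs, 87 genes by their RefSeq class, took 12436, 7475 and 5553 CPM in the adenomas, 10157, 10211 and 5076 CPM in Min mucosa, and 17712, 3157 and 6101 CPM in wild-type mucosa. Their level varied within each group by more than the groups differed.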
